A study of Schizosaccharomyces pombe with 2 samples.

Results

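The set described here comprises 9 glycolysis and fermentation genes of fission yeast, *fba1*, *tpi1*, *tdh1*, *pgk1*, *gpm1*, *eno101*, *pyk1*, *pdc101* and *adh1*. They were taken as a list by name, from 5113 protein-coding genes, and every long-read transcript model that overlaps one of them on either strand was examined in 2 PacBio Iso-Seq libraries, a method that sequences full-length cDNA. The stress pool library was made from h+ ade6-M216 ura4-D18 leu1-32 cells that either carry *hrp1*::kanMX and *hrp3* deletions or lack both, left untreated or exposed to 14 mM caffeine or 200 ng/ml clotrimazole, an antifungal azole. The WT library was made from untreated cells of that background without the deletions. All cells grew in YES, a rich medium, at 32 °C to mid-log phase. Because genotypes and treatments were combined in 1 pool, their shares in the pool's models cannot be told apart. Both labels name batch 1, whereas the design text assigns the libraries to separate sequencing runs. Each group is 1 library, so genotype, treatment, run and depth cannot be told apart between them, and no test was made.

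Glycolysis splits glucose into a pair of three-carbon units and converts each to pyruvate, with a net gain of ATP. Where glucose is plentiful, yeasts then decarboxylate pyruvate to acetaldehyde and reduce it to ethanol, which regenerates the NAD+ that glycolysis consumes. Aldolase (*fba1*) makes the cleavage and triose-phosphate isomerase (*tpi1*) interconverts its products. Glyceraldehyde-3-phosphate dehydrogenase (*tdh1*), phosphoglycerate kinase (*pgk1*), phosphoglycerate mutase (*gpm1*), enolase (*eno101*) and pyruvate kinase (*pyk1*) carry out the lower part of the pathway. Pyruvate decarboxylase (*pdc101*) and alcohol dehydrogenase (*adh1*) form the fermentative branch. Their mRNAs are known as some of the most abundant of growing yeast. The deposited models carry no read numbers, so this could not be checked in these libraries, and a model counts as 1 whether it rests on few or many reads.

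The promoters of these genes are shown because they share a feature that the choice of genes did not use. The comparison was not among the planned results and is a description only. In both libraries together, 163 of the 234 models on the strand of their gene began at the commonest start of that gene, and the 60 nt before this start held the letters TATAAA or TATATA on the gene's strand in 9 of 9 genes. The matched letter run began 31 to 41 nt upstream of the start. Among 5057 protein-coding genes with models, 732 (14.5%, 95% interval 13.5 to 15.5) held either motif in the same window, and 904 (17.9%) did on either strand. In genes with few models, the commonest start that places the window rests on few models. How this changed the share over all genes was not tested. TATATA reads the same on both strands and can overlap TATAAA. A match describes letters and not a binding site. The windows run 5′ to 3′ on the gene's strand of ASM294v3 and end just before the start, with the matches in capitals. For *gpm1*, whose upstream DNA lies in the annotated untranslated end of *mug106*, only the stretch from 45 to 16 nt upstream is given.
fba1 chrII:1688261-1688320 (+ strand): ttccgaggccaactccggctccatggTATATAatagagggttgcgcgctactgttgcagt
tpi1 chrIII:939853-939912 (+ strand): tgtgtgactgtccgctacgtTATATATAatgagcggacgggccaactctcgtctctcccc
tdh1 chrII:2807535-2807594 (+ strand): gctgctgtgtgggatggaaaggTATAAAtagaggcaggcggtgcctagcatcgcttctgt
pgk1 chrII:4159461-4159520 (- strand): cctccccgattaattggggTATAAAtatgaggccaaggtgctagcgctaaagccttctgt
gpm1 chrI:5174670-5174699 (- strand): tatgaacttccTATATAAAggatggtagac
eno101 chrII:2201131-2201190 (+ strand): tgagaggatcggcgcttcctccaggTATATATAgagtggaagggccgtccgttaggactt
pyk1 chrI:3846676-3846735 (- strand): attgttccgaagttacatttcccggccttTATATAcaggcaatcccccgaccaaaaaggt
pdc101 chrI:103598-103657 (- strand): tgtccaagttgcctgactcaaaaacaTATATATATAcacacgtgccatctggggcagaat
adh1 chrIII:1591232-1591291 (+ strand): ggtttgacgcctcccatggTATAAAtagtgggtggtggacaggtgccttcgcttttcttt

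The pool holds 69996 models and WT 26120, a ratio of 2.68, and this is the only measure of library size. The annotation has 5205 introns in coding genes, of which 97% were found in the pool and 87.8% in WT. Of all distinct gaps between exons, 89.7% in the pool and 97.2% in WT opened with GT and closed with AG. No model ran past a chromosome end.

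The 9 genes carried 170 models on their own strand in the pool and 64 in WT, a ratio of 2.66, against 2.39 over all protein-coding genes. All 9 had models in both libraries. The median was 18 models per gene in the pool and 8 in WT, whereas over all protein-coding genes it was 11 in the pool and 4 in WT. *adh1* stood highest, with 31 models in the pool and 13 in WT. It exceeded 97.2% of protein-coding genes in the pool and 94.6% in WT. *pyk1* had 29 and exceeded 96.2% in the pool, but its 8 models in WT exceeded 77%. *pdc101* had 21 models in the pool and 8 in WT, and *gpm1* had 18 and 8. *eno101* had 18 in the pool and only 4 in WT, the widest ratio of the set at 4.5. *pgk1* had 15 in the pool and 8 in WT, *tdh1* had 15 and 5, and *fba1* had 13 and 4. *tpi1* had the fewest in the pool, with 10 against 6 in WT, and exceeded 40.8% of genes in the pool. The members thus ranged over much of the distribution, and only *adh1* lay in its upper tail in both libraries. The genes are compact. Their annotated lengths run from 791 nt for *gpm1* to 1933 nt for *pyk1*, and none has an annotated intron. For *pdc101* the annotation is marked as a low-quality sequence region and reads 1 base in both of its coding parts.

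**Figure D1:**
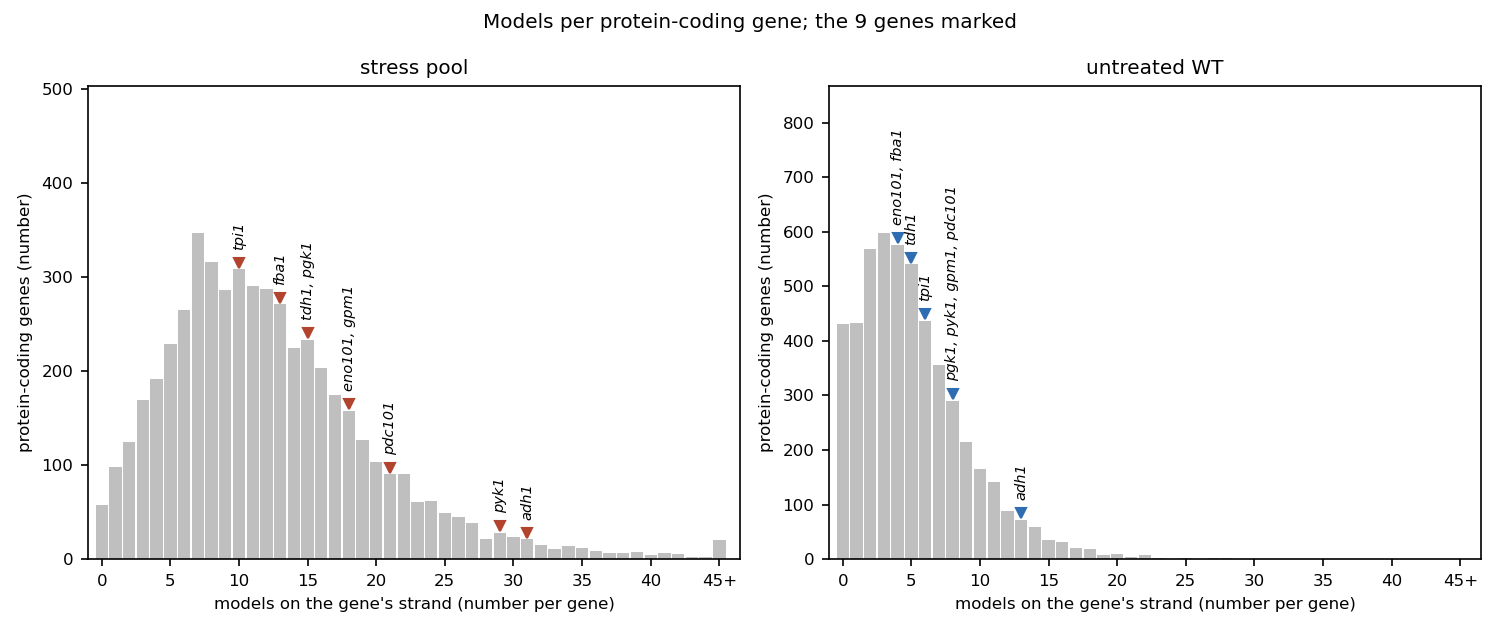
The number of models on the gene's strand (horizontal axis) is plotted against the number of protein-coding genes with that many (grey bars, vertical axis), for the stress pool on the left and untreated WT on the right. Triangles mark the 9 genes; adh1 lies at 31 models in the pool and 13 in WT, and tpi1 at 10 in the pool and 6 in WT.

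Most starts lay close to the annotated one. In the pool, 151 of 170 models (88.8%) began within 10 nt of the annotated start, as did 50 of 64 (78.1%) in WT, against 47.5% of all models in the pool and 57.4% in WT. This share also depends on how well each start is annotated. Joining starts up to 50 nt apart, the median gene of the set had 3 groups in the pool and 2 in WT. Over all protein-coding genes with models the median was 3 in the pool and 1 in WT, so the set did not have fewer groups of starts. For *adh1*, 39 of its 44 models in both libraries began at exactly the same base, the annotated start at chromosome III position 1591292. *pyk1* repeated this in 32 models, *gpm1* in 20 and *tdh1* in 15, each at the annotated base. *pgk1* had its commonest start 1 nt downstream of the annotated base in 15 models, and *eno101* 5 nt upstream in 12. The collapsing step by the authors could join starts up to 100 nt apart and fold models with a shorter 5′ end into longer ones. Spread below that distance and short models of the same exon chain are therefore resolved only in part, for these genes and for all others.

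Models with a start inside the coding sequence were few. A start at least 100 nt past the first base of the coding sequence was found in 3 of 170 models in the pool (1.76%, 0.365 to 5.07) and 1 of 64 in WT (1.56%, 0.0396 to 8.4), while the share over all genes was 8.92% in the pool and 5.85% in WT. Such intervals are exact Clopper-Pearson limits at 95% and cover counting error only, and models of 1 gene are not independent molecules. The models in the pool began 132 nt into *pgk1*, 199 nt into *pyk1* and 164 nt into *gpm1*. The model in WT began 143 nt into *pgk1*, 11 nt from the inner start of that gene in the pool. This is 3 of 9 genes in the pool against 45.9% of all genes with models, and 1 of 9 in WT against 20.3%. *eno101* had 1 further shortened model in the pool, 69 nt into its coding sequence.

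Starts far upstream also occurred. Leaving out models that read through another coding gene, 9 models of 7 genes in the pool and 3 models of 3 genes in WT began at least 100 nt upstream of the annotated start, a limit chosen after the values were seen. Over all genes with models, 58.4% had such a start in the pool and 25.9% in WT. Counted by model the order was the other way, with 5.29% of the models of the 9 genes in the pool and 4.69% in WT, against 15.2% of all models in the pool and 9.5% in WT. *tdh1* showed it at almost the same place in both libraries, 1577 nt upstream in the pool and 1580 nt upstream in WT, and both models ended at the same base. They overlapped an annotated non-coding RNA, SPNCRNA.1550, as did models of *tdh1* in the pool that began only 8 nt upstream. *adh1* had a model from 1674 nt upstream in the pool and from 1484 nt upstream in WT. *eno101* had one from 629 nt upstream in the pool and from 1132 nt upstream in WT. *pgk1*, *pyk1* and *pdc101* had such long models in the pool, the longest reaching 1203 nt upstream of *pgk1*. The 2 of *fba1* began 638 and 395 nt upstream, also in the pool. Those of *fba1*, *pyk1* and *pdc101* and the longest of *pgk1* overlapped annotated non-coding RNAs of their strand, while those of *adh1* and *eno101* overlapped none.

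**Figure D2:**
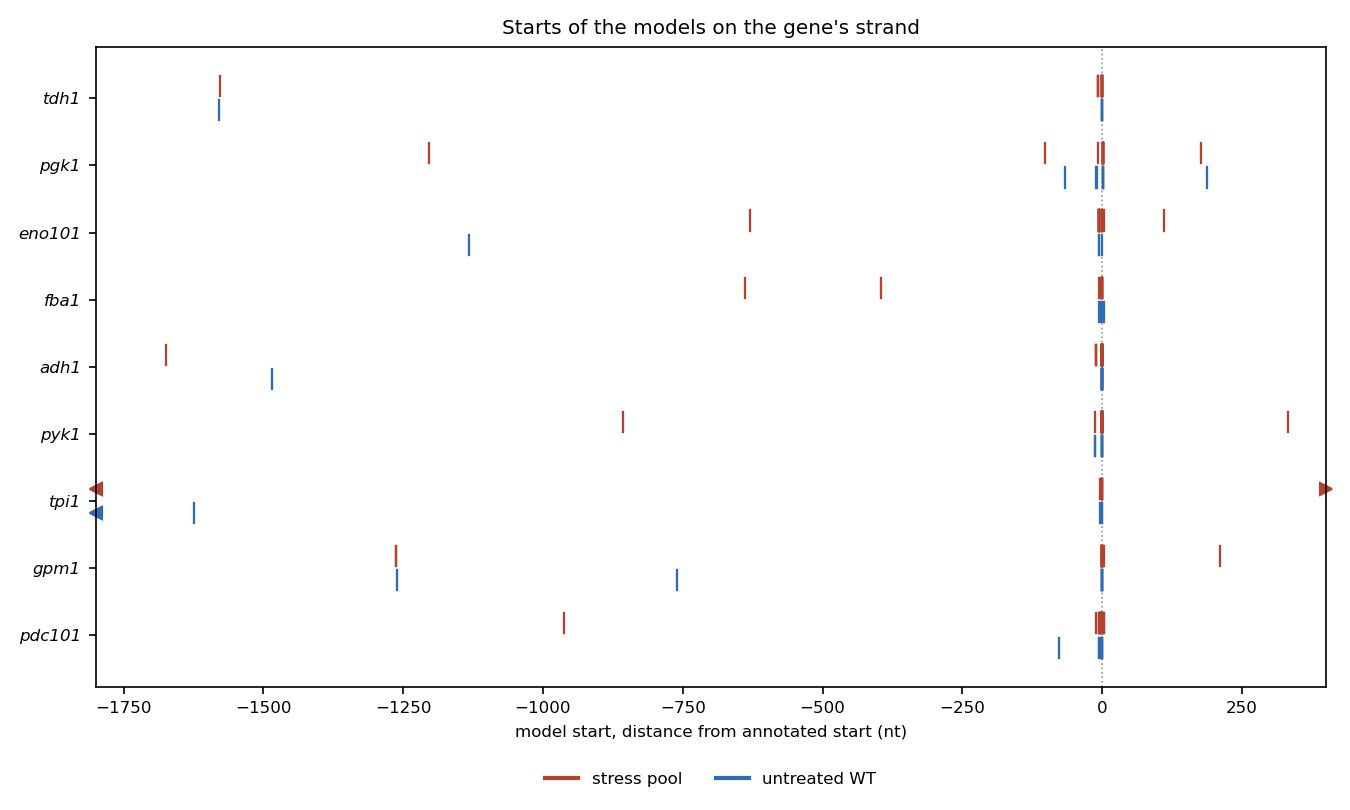
Each tick is the start of 1 model on the gene's strand, as distance in nt from the annotated start (dotted line), with the stress pool above untreated WT in every row. Most ticks fall on the annotated start, the others reach as far as 1674 nt upstream at adh1, and arrowheads mark models of tpi1 that begin beyond the axis.

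The ends took more positions than the starts, in the set as over all protein-coding genes. The 170 models in the pool used 43 distinct start positions and 130 distinct 3′ ends within their genes, and the 64 in WT used 29 starts and 58 ends. Over all protein-coding genes there were 33170 distinct starts and 53983 distinct ends in the pool, and 14884 and 24533 in WT. Joining positions up to 50 nt apart left 25 groups of starts and 53 groups of ends in the pool, and 19 and 34 in WT. All protein-coding genes had 17695 groups of starts and 26852 of ends in the pool, and 8301 and 14576 in WT. In the set, the contrast was lost at a joining distance of 100 nt, the tolerance that the authors' collapsing had already applied to starts. It left 24 groups of starts and 23 of ends in the pool, and 17 and 21 in WT. The median gene of the set had 6 groups of ends in the pool and 3 in WT, against 5 and 3 over all protein-coding genes. Among single-exon models with the annotated start, neighbouring ends lay a median of 51 nt apart in the pool (from 13 nt upwards, 89 pairs) and 76 nt in WT (from 12 nt upwards, 33 pairs). The 3′ tolerance of the collapsing step is not given in the sources used here, so this spacing may include it, which was not tested.

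The reach of the ends differed between genes. *adh1* ended at 23 distinct positions in the pool, 454 nt upstream to 411 nt downstream of the annotated end, and at 9 in WT, from 202 nt upstream to 358 nt downstream. Its commonest end lay 2 nt upstream of the annotated one in both libraries, in 9 models of the pool and 5 of WT. *gpm1* ended at 18 positions in 18 models of the pool, from 50 nt upstream to 766 nt downstream, and at 8 positions in 8 models of WT, from 50 nt upstream to 590 nt downstream. Its median end was 287 nt beyond the annotated one in the pool and 210.5 nt in WT. *tdh1* ended short of the annotated position, with a median of 57 nt upstream in each library. *pyk1* repeated the end 6 nt upstream of the annotated one in 12 models of the pool and 2 of WT. Ends at least 100 nt beyond the annotation made up 20.6% of the models of the 9 genes in the pool and 26.6% in WT, against 21.4% of all models in the pool and 16.9% in WT.

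Ends were also compared between the libraries. Of the 34 groups of ends in WT, 28 (82.4%) had an end of the pool within 20 nt, against 93.7% of the groups over all protein-coding genes. Of the 64 models in WT, 43 (67.2%) had a model in the pool with the same number of exons and both ends within 20 nt, against 59.3% over all protein-coding genes. With neighbouring ends in the pool as close as stated above, such matches can arise without a shared end site. *fba1* had all of its 4 WT models matched, while *tpi1* had 2 of 6 and *pgk1* 3 of 8.

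**Figure D3:**
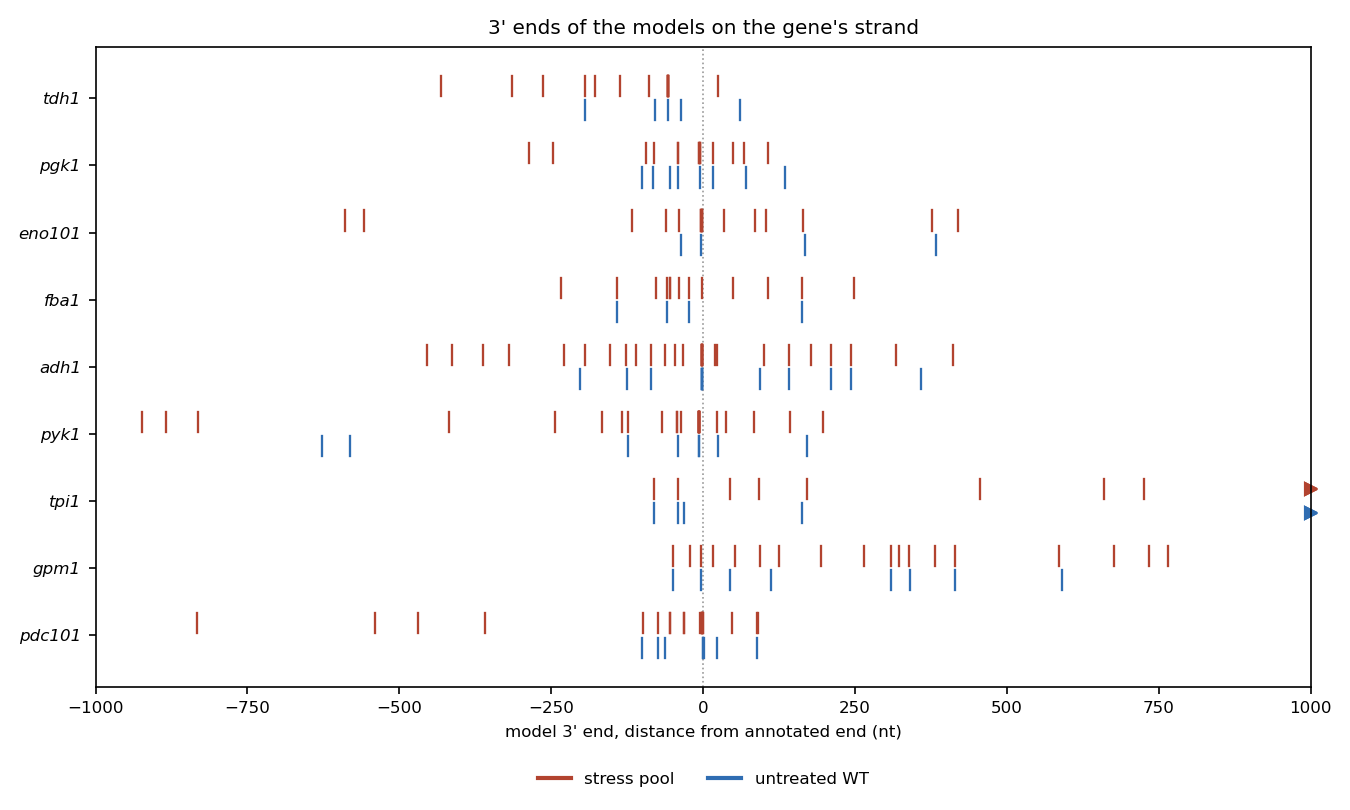
Each tick is the 3′ end of 1 model on the gene's strand, as distance in nt from the annotated end (dotted line), with the stress pool above untreated WT in every row. The ends of gpm1 trail up to 766 nt downstream in the pool and 590 nt in WT, pyk1 and pdc101 have ends far upstream, and arrowheads mark models of tpi1 beyond the axis.

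Ends before the stop codon were found in 13 models of the pool (7.65%, 4.13 to 12.7) and 2 of WT (3.12%, 0.381 to 10.8), against 13.4% of all models in the pool and 8.44% in WT. They fell in 5 of 9 genes in the pool, where 52.6% of all genes had one, and in 1 of 9 in WT, where 25.9% did. *pyk1* had 4 in the pool, 654, 614, 561 and 149 nt before the stop codon, and 2 in WT, at 357 and 311 nt. *pdc101* had 4 in the pool, from 712 to 238 nt before it. *eno101* had 3 in the pool, at 494, 462 and 21 nt, and *fba1* and *tdh1* had 1 each, at 78 and 28 nt. Long runs of genomic A after an end can prime oligo-dT inside a transcript. None of the 13 early ends in the pool and none of the 2 in WT was followed by at least 12 A in 20 nt, which held for 32% of the early ends of all genes in the pool and 45.5% in WT. Taking 3 counts as the most that a count of 0 allows, 13 ends give a rough limit of 23.1%, and 2 ends set no useful limit. This limit treats ends of the same gene as independent, which they are not. Whether such priming made any of the early ends was not tested. Over all ends of the 9 genes, 4.12% in the pool and 6.25% in WT were followed by at least 12 A in 20 nt. Over all models the share was 13.6% in the pool and 13.1% in WT.

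Gaps in the exons of these intronless genes were frequent. A model with at least 1 gap that is no annotated intron was seen in 54 of 170 cases in the pool (31.8%, 24.8 to 39.3) and 8 of 64 in WT (12.5%, 5.55 to 23.2). Over all genes the share was 6.75% in the pool and 4.33% in WT. Such models occurred in 7 of 9 genes in the pool, where 29.3% of all genes with models had one, and in 3 of 9 in WT, where 11.1% did. For gaps without the GT and AG of introns, a class set apart after the values were seen, the share was 28.8% of the members' models in the pool (22.1 to 36.3) and 9.38% in WT (3.52 to 19.3), against 1.56% and 0.657% of all models in the pool and in WT. A gap of this kind occurred in each of the 7 genes with gapped models in the pool and each of the 3 in WT. The background of genes with such a gap was 10.2% in the pool and 2.28% in WT. Without the gapped models, the 9 genes had 116 models in the pool and 56 in WT, a ratio of 2.07, which lies below the 2.33 of ungapped models over all protein-coding genes.

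By gene, *pyk1* had 14 gapped models of 29 in the pool and 1 of 8 in WT. *pdc101* had 11 of 21 in the pool and 3 of 8 in WT, and *adh1* had 9 of 31 and 4 of 13. *tdh1*, *pgk1* and *eno101* had 6 each in the pool and *fba1* had 2, with none in WT. *tpi1* and *gpm1*, the shortest of the set, had none in either library. The gapped models otherwise resembled full-length ones. In the pool, 53 of 54 began within 10 nt of the annotated start, 54 of 54 reached from before the first codon to past the stop codon, and 46 ended within 10 nt of an end of an ungapped model of the same gene. In WT this held for 8, 8 and 7 of 8.

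**Figure D4:**
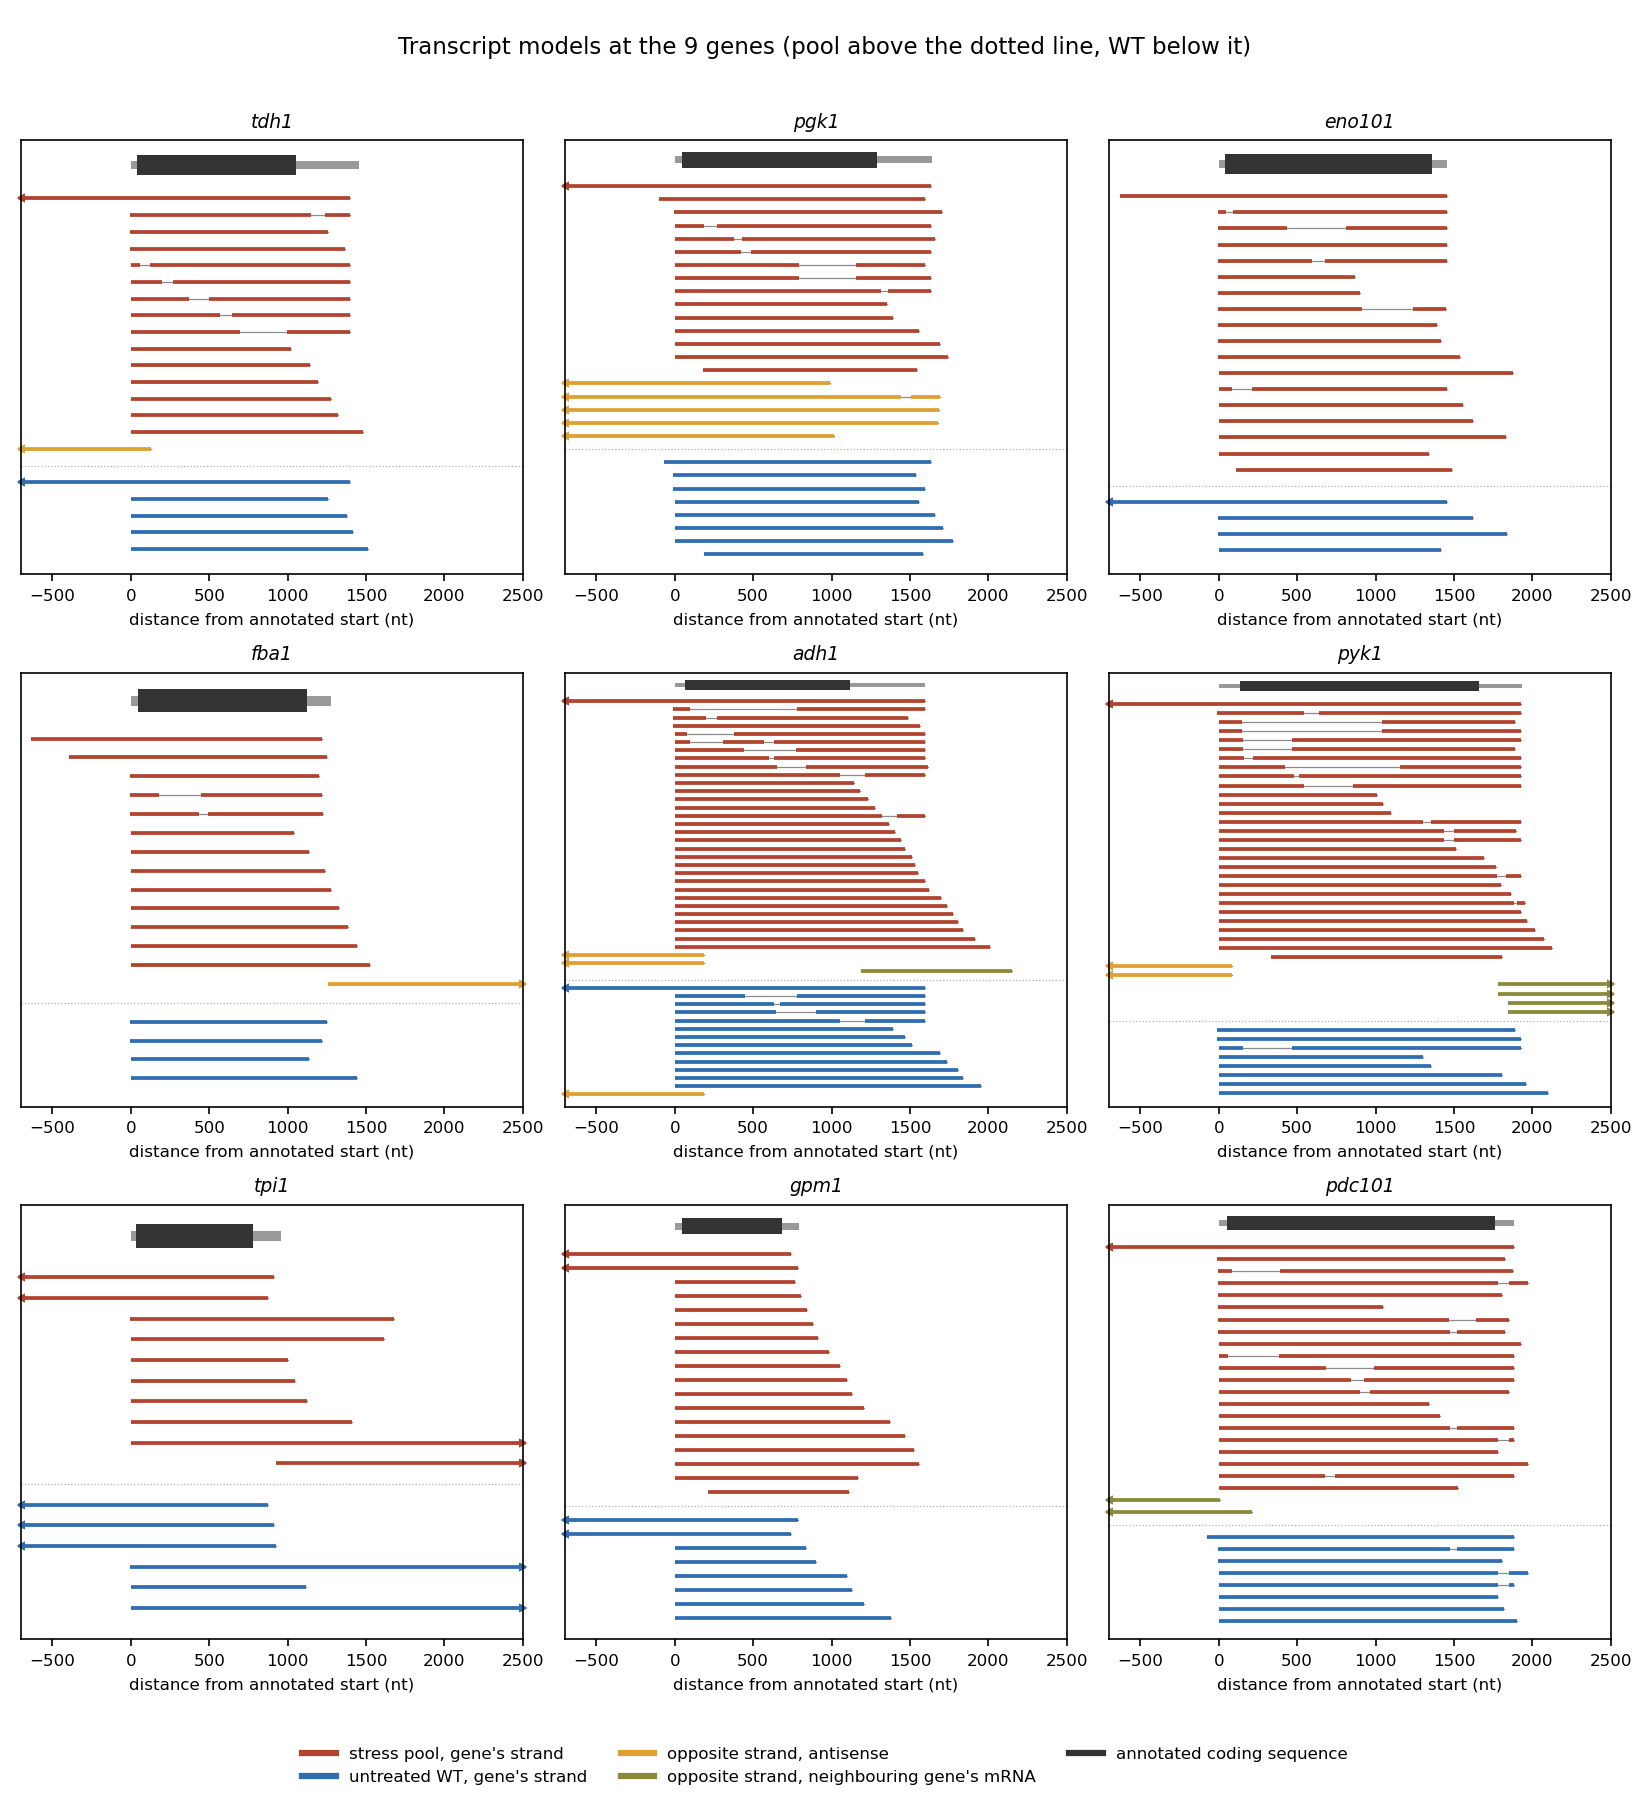
The exons (thick lines) and gaps (thin lines) of every model at the 9 genes, as distance in nt from the annotated start, with the stress pool above the dotted line and untreated WT below it; dark bars show coding sequences, and arrowheads mark models that run beyond the axis. Gaps fall in pyk1, pdc101, adh1, tdh1, pgk1, eno101 and fba1 and in none of the models of tpi1 and gpm1.

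The gaps took 50 distinct positions in the pool and 7 in WT, and 4 of these were identical to the base in both libraries. The authors' collapsing allowed 100 nt at splice junctions, so nearby gaps may have been joined. Numbers, lengths and edges of gaps are therefore those of the deposited models. The gaps were 1 to 891 nt long in the pool, with a median of 83 nt, and 39 to 329 nt in WT, with a median of 160 nt. Of the 50 in the pool, 43 lay wholly inside the coding sequence, 1 in part and 6 in untranslated sequence. Among the 40 coding gaps of the pool without GT and AG, 25 (62.5%) had a length divisible by 3, as did 275 of 530 (51.9%) over all genes. In WT this was 3 of 5 (60%) in the set and 56 of 81 (69.1%) over all genes. Only 4 of 50 (8%) in the pool and 1 of 7 (14.3%) in WT could be placed with GT at the start and AG at the end, compared with 66.2% of all unannotated gaps in the pool, 80.3% in WT, and 99.9% of the annotated introns found in the pool and 99.8% in WT.

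The edges of most gaps carried a short direct repeat, so that the sequence at the start of the gap recurs at its end and the exact breakpoint cannot be placed within it. The repeat had a median of 4 nt in the pool and 5 nt in WT, against 1 nt for annotated introns in each library. It was at least 4 nt long in 28 of 50 gaps in the pool (56%) and 5 of 7 in WT (71.4%). Unannotated gaps without GT and AG in all genes were like this in 53.2% of cases in the pool and 55.5% in WT, and annotated introns in 5.53% and 5.67%. In *pgk1*, all 5 distinct gaps of the pool had repeats of 5 to 7 nt. In *pyk1* the repeats ran from 0 to 10 nt. Reverse transcriptases are known to jump between direct repeats during cDNA synthesis, and whether this occurred here was not tested.

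The edges are shown for the 2 gaps with the longest repeats and for the 4 gaps found in both libraries. The first 2 were picked for their repeats, so they do not show how common long repeats are. Each line gives 30 nt on the gene's strand of ASM294v3 around the gap's left or right edge in the direction of transcription, and capitals mark the repeat. The 306 nt gap of *pyk1* and the 78 nt gap of *pdc101*, both in the pool, have repeats of 10 nt. The 45 nt gap of *pdc101*, present in 2 models of the pool and 1 of WT, has 8 nt, the 310 nt gap of *pyk1* 6 nt and the 160 nt gap of *adh1* 3 nt. The 69 nt gap of *pdc101* is of another kind. It lies after the stop codon, opens with GT, closes with AG and was found in 2 models of the pool and 2 of WT.
pyk1 chrI:3845823-3846128, left edge: tacattgactacAAGAACATCAccaaggtc
pyk1 chrI:3845823-3846128, right edge: ggtgaggagggtAAGAACATCAagatcatc
pdc101 chrI:102674-102751, left edge: acaagaactaTGCTGGTGTCtactggggtg
pdc101 chrI:102674-102751, right edge: ttgtcatcggTGCTGGTGTCcttttcaacg
pdc101 chrI:102080-102124, left edge: tcttgcttaACAACCGTggttacaccattg
pdc101 chrI:102080-102124, right edge: atggtccttACAACCGTatccaaaactggg
pyk1 chrI:3846209-3846518, left edge: tctgctgtcTCTCCTaagcaatgggtcgcc
pyk1 chrI:3846209-3846518, right edge: actaccccaTCTCCTctggtcacgagatga
adh1 chrIII:1592344-1592503, left edge: ccttctctactcttcCCGacgtctaccgtc
adh1 chrIII:1592344-1592503, right edge: ttttcgatggtacggCCGttgtcaatctca
pdc101 chrI:101747-101815, left edge: aacggacgttgtttGgtaagaatatgttac
pdc101 chrI:101747-101815, right edge: gaatgcttatcctaGataatataaatcata

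**Figure D5:**
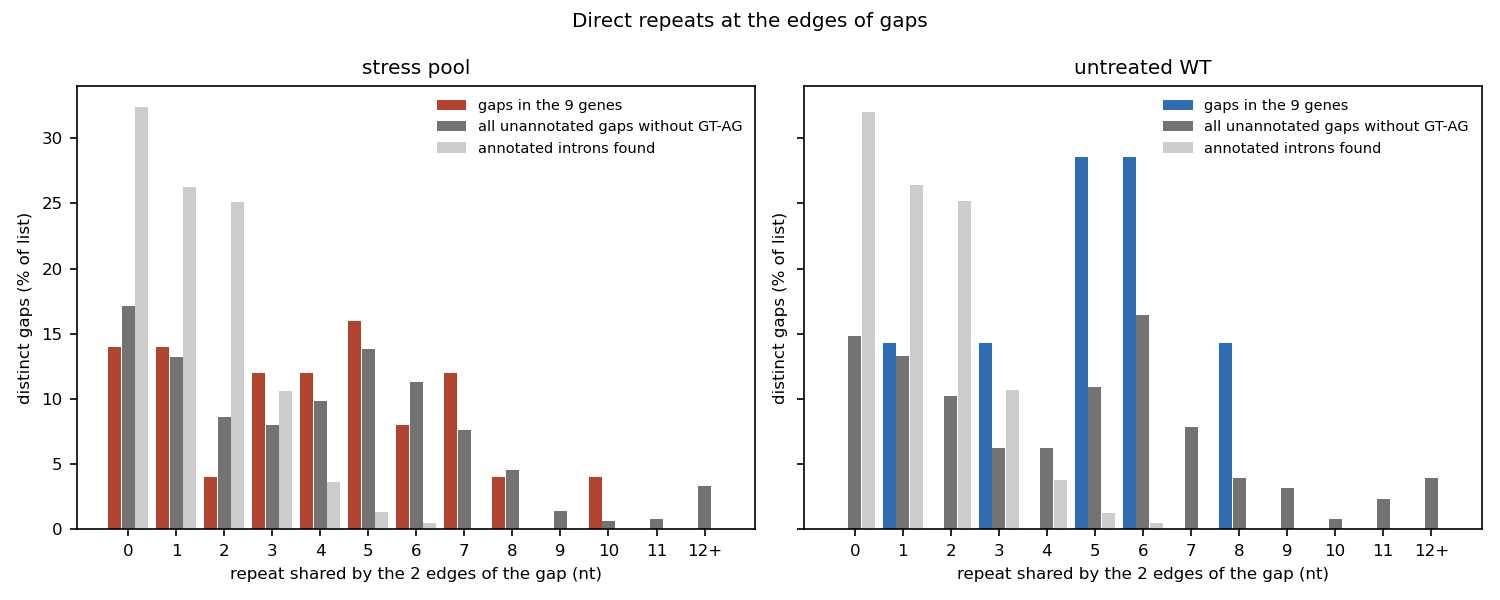
The length of the direct repeat shared by the edges of a gap (horizontal axis, nt) is plotted against the share of distinct gaps (vertical axis, percent), for the stress pool on the left and untreated WT on the right. Coloured bars are gaps in the 9 genes (50 in the pool, 7 in WT), dark grey bars all unannotated gaps without GT and AG, and light grey bars annotated introns, which gather at 0 to 2 nt.

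Readthrough was limited to *tpi1* and *gpm1*. A model that covered at least 50 nt of coding sequence both of the member and of another gene on its strand was found 7 times in the pool (4.12%, 1.67 to 8.3) and 7 times in WT (10.9%, 4.51 to 21.2), against 8.93% of all models in the pool and 8.17% in WT. These were 2 of 9 genes in each library, where 23.5% of all genes in the pool and 14.3% in WT had one. *tpi1* had 5 in each library, on both sides. In the pool, 2 came in from SPCC24B10.20 upstream and 3 ran on into *pog1* downstream. In WT, 3 came in from SPCC24B10.20 and 2 ran into *pog1*. The longest ran from the annotated start of *tpi1* at chromosome III position 939913 to 944564, 3695 nt past its annotated end, with identical ends in both libraries. A further model of the pool began in the last part of the *tpi1* transcript and ran through *pog1*, and it was counted as a model of *tpi1* by its overlap alone. *gpm1* had 2 in each library, all coming in from *mug106*, whose annotated transcript overlaps that of *gpm1*. In the pool they began at position 5175917 of chromosome I, and in WT at 5175915 and 5175415.

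Antisense models were found at 5 genes in the pool and 1 in WT. They numbered 11 in the pool and 1 in WT. Counted were models on the opposite strand that overlap no annotated gene of their own strand, genes annotated as lncRNA or ncRNA aside. Of all protein-coding genes, 55.5% had one in the pool and 8.41% in WT. The pool, the library whose cells include the *hrp1* and *hrp3* deletions, was thus the one with nearly all of them, in the set as over all genes, and genotype, treatment, run and depth cannot be told apart. *eno101*, *tpi1*, *gpm1* and *pdc101* had none in either library by this count. At *pdc101*, models of the pool that began inside it on the opposite strand overlapped a neighbouring coding gene and are given below.

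*pgk1* was the only member with antisense models over all of its coding sequence. It had 5 in the pool and none in WT. Of these, 3 began outside the gene, within 3 to 8 nt of a 3′ end of a *pgk1* model, and covered 95.9 to 100% of the gene. The other 2 began inside the gene and covered 61.8% and 60.3% of it. All 5 ran 819 to 910 nt past the start of *pgk1* and overlapped the annotated SPNCRNA.6456. *adh1* had 2 in the pool and 1 in WT, and all 3 began at the same base, chromosome III position 1591478, and shared 187 nt with the 5′ part of *adh1*. *adh1AS*, the antisense RNA known to repress *adh1* when zinc is scarce, is annotated from 1590025 to 1593983 and spans the whole gene. Of the models on its strand that overlap that interval, 4 in the pool and 1 in WT, none covered all of *adh1*. *pyk1* had 2 in the pool, which shared 87 and 85 nt with its 5′ untranslated part and lay in SPNCRNA.941. *tdh1* had 1 in the pool, with 127 nt of overlap at its 5′ end and no annotated non-coding RNA. *fba1* had 1 in the pool, with 24 nt of overlap at its 3′ end, in SPNCRNA.5301.

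Opposite-strand models that overlap an annotated gene of their own strand, lncRNA and ncRNA genes aside, were kept apart, wherever they began. There were 7 in the pool, at 3 of 9 genes, and none in WT. Of all protein-coding genes, 53.4% had one in the pool and 40% in WT. *pyk1* had 4, from SPAC4H3.09, which overlapped its 3′ end by 90 or 153 nt. *adh1* had 1, from SPCC13B11.02c, by 408 nt. *pdc101* had 2 that ran into SPAC1F8.08 and shared 215 and 11 nt with *pdc101*. Both began inside *pdc101*, 214 and 10 nt downstream of its annotated start. The longer one overlapped 162 nt of the *pdc101* coding sequence.

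The other genes of the pathway on the list, 12 enzymes and isoenzymes from hexokinase to acetaldehyde dehydrogenase, had 156 models on their strand in the pool and 65 in WT. *pdc202*, a pyruvate decarboxylase isoenzyme, and *fbp1*, fructose-1,6-bisphosphatase of gluconeogenesis, had 4 each in the pool and none in WT. Gapped models numbered 22 of 156 in the pool (14.1%, 9.05 to 20.6) and 5 of 65 in WT (7.69%, 2.54 to 17). Of these, *hxk2*, a hexokinase, had 14 in the pool and 4 in WT. Over all genes, 6.75% of models in the pool and 4.33% in WT were gapped. Early ends were 29 (18.6%) in the pool and 4 (6.15%) in WT, against 13.4% of all models in the pool and 8.44% in WT. *atd1*, an aldehyde dehydrogenase, had 15 of these early ends in the pool and 2 in WT. Antisense models were 33 in the pool, at 9 of 12 genes, and 9 in WT, at 4 genes. Of all protein-coding genes, 55.5% had one in the pool and 8.41% in WT. *tdh1* and its paralogue *gpd3* share 93.2% of coding bases, while *eno101*, *pdc101* and *adh1* share 63.1 to 65% with their listed paralogues. How reads were placed between *tdh1* and *gpd3* was not tested.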

How the data were processed

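PacBio HiFi reads from 2 libraries, 1 per group, were clustered into isoforms with Iso-Seq4, mapped with minimap2 and collapsed with TAMA Collapse by the authors, allowing 100 nt at starts and at splice junctions, without cap selection. The deposited files give exon positions per model. The score deposited by the authors is 40 on every model, carries no read support and was not used, and no read or depth value per model was at hand. The submitters' processing notes name ASM294 v2. RefSeq ASM294v3 was used here, since annotated introns were found among the models at its positions and no model passed its chromosome ends. Coordinates are 1-based.

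Nuclear models (chromosomes I to III) were assigned to genes by exonic overlap of at least 1 nt. Models on the opposite strand were called antisense where they overlapped no annotated gene on their own strand, with lncRNA and ncRNA genes left out of the annotation. Ends and starts within 50 nt formed groups. A gap counted from 1 nt. All 9 genes were named, and the members and lists were chosen with earlier results of these data known. No test between libraries was possible with 1 library per group. The scripts ran under Python 3.11.15 with SciPy 1.17.1 for intervals and Matplotlib 3.10.9 for plots. On simulated data with 5 classes of 200 models each, all 1000 were assigned to their class. They were planted at intronless coding genes that overlap no gene other than lncRNA or ncRNA genes. Readthrough models and opposite-strand models of a neighbouring gene were not simulated. Alternatives varied the overlap, the grouping distance, the thresholds and the annotation.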

Additional observations from a re-analysis of the deposited data

How the results depend on the processing

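Of 32 pairs of a result and an alternative, 23 stayed within 1.5 times the value or within its counting interval, and 9 moved. Groups of 3′ ends over the 9 genes depended on the joining distance: they numbered 102 in the pool and 53 in WT at 20 nt, and 23 in the pool and 21 in WT at 100 nt. With a start at least 300 nt into the coding sequence the share of models with an inner start was 0 in the pool and 0 in WT. Antisense models became 18 in the pool when every opposite-strand model counted, and 1 in the pool and 0 in WT when lncRNA and ncRNA genes stayed in the annotation, since all but the model at *tdh1* overlap one. No paired analysis was possible because each group is 1 library and the labels give no replicate numbers. Without read numbers, a model seen in 1 library may be missing from the other by sampling.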
